A study of Bursaphelenchus xylophilus with 12 samples.

Results

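The genes described here were those of the pine wood nematode that stood higher after 24 h in emamectin benzoate than in the adjuvant control, and higher than after 12 h in emamectin benzoate, while the adjuvant control itself changed little from 12 h to 24 h. They were chosen from measured values: a mean of all 12 libraries of 5 to under 800 FPKM (the fragments of a gene divided by its length and by the total of the library), and group means of log2(FPKM + 1) with EB24 at least 0.7 above EC24, EB24 at least 0.7 above EB12, and EC24 within 0.5 of EC12. The pooled standard deviation of the 12 h replicates also had to be under 0.6. Of the 18036 IDs in the table, 17704 were gene IDs starting with BXY, 10333 of these lay in the range of FPKM, and 131 met the whole rule. Each step narrowed the list: 9310 genes passed the limit on the 12 h replicates, 4702 of them also the limit on the control, 553 also the threshold of EB24 against EB12, and 131 also that of EB24 against EC24. Since the rule used EB24 against EC24, EB24 against EB12 and EC24 against EC12, and these together fix EB12 against EC12, the differences between group means are a description of the 131 genes. Calls of a model fitted to all genes are counted for them beside the share called among all genes, and are no evidence about the set.

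Adult Bursaphelenchus xylophilus of strain NB-6, fed on the fungus Botrytis cinerea, were immersed at 25 °C in emamectin benzoate at 0.1 mg/L (EB24 for 24 h and EB12 for 12 h) or in adjuvant alone (EC24 for 24 h and EC12 for 12 h). The adjuvant held n-butyl alcohol and octylphenol polyoxyethylene-10, at the concentration present in the emamectin benzoate solution. Titles with EC were read as adjuvant controls because no other group was left for them, the treatment text using ON instead. Each of the 4 groups had 3 libraries, each from 200 pooled adults, and nothing says whether these came from separate cultures or of which sex the adults were.

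Emamectin benzoate is a derivative of the avermectins, macrocyclic lactones that open glutamate-gated chloride channels of nerve and muscle cells in nematodes and arthropods and so paralyse the animal. It is injected into pine trunks against Bursaphelenchus xylophilus, the cause of pine wilt disease, which feeds on fungi or on living pine cells. The nematode Caenorhabditis elegans is known to answer many foreign compounds by raising transcripts of oxidising and conjugating enzymes and of export pumps. The table gave no names or descriptions, so whether any of the 131 genes belongs to those families was not analysed here, and the genes are described by ID, level and pattern. In RNA from whole worms, fewer cells of a type and less RNA per cell cannot be told apart.

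The libraries summed to 916720 to 929471 FPKM in EB24, 932367 to 944595 in EC24, 861704 to 870950 in EB12 and 824088 to 845626 in EC12. Read totals are unknown. The 12 h libraries differed more among themselves than the 24 h libraries. The median standard deviation of log2(FPKM + 1) over the 10333 genes in the level range was 0.26 when pooled over EB12 and EC12, against 0.08 in EB24 and 0.10 in EC24. The labels name no batch, and a batch that followed time cannot be told apart from it. The 12 h titles carry a group number, 3 for EB12 and 2 for EC12, that the 24 h titles lack.

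Summed over the 131 genes, the EB24 libraries held 4920, 5074 and 4989 FPKM, against 2531, 2526 and 2537 FPKM in EC24. The 12 h sums were 2659, 2037 and 2291 FPKM in EB12 and 2950, 2434 and 2387 FPKM in EC12. The 3 EB24 libraries thus lay above the other 9, and EC24 lay inside the range of the 12 h libraries. As a share of all FPKM in a library this was 0.531% to 0.546% in EB24, against 0.269% to 0.271% in EC24, 0.236% to 0.305% in EB12 and 0.288% to 0.358% in EC12. Over the members, EB24 minus EC24 had a median of 0.83 log2 units and ran from 0.70 to 1.71, beside a median of 0.14 over the 13768 IDs tested. EB24 minus EB12 had a median of 1.21 and ran from 0.71 to 2.16, beside 0.15 over the IDs tested. EC24 minus EC12 had a median of 0.02, from -0.47 to 0.49, beside 0.04. Scaling moved the median of all IDs, and relative to that median the members stood 0.69 higher in EB24 than in EC24. With libraries scaled by median ratios this was 0.68, and with quantile normalization it was 0.71. Since median ratios apply 1 factor per library, which nearly cancels in such a difference, the value of 0.68 is no check of scaling. Without that subtraction the members' median EB24 minus EC24 was 0.74 with either scaling. Their median EB24 minus EB12 was 1.02 with median ratios and 0.98 with quantile normalization. Membership depended on scaling: the rule found 72 genes with median ratios, 67 of them among the 131, and 80 with quantile normalization, 64 of them among the 131. A difference of at least 1 was found for 33 members between EB24 and EC24, for 90 between EB24 and EB12, and for 25 in both.

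**Figure D1:**
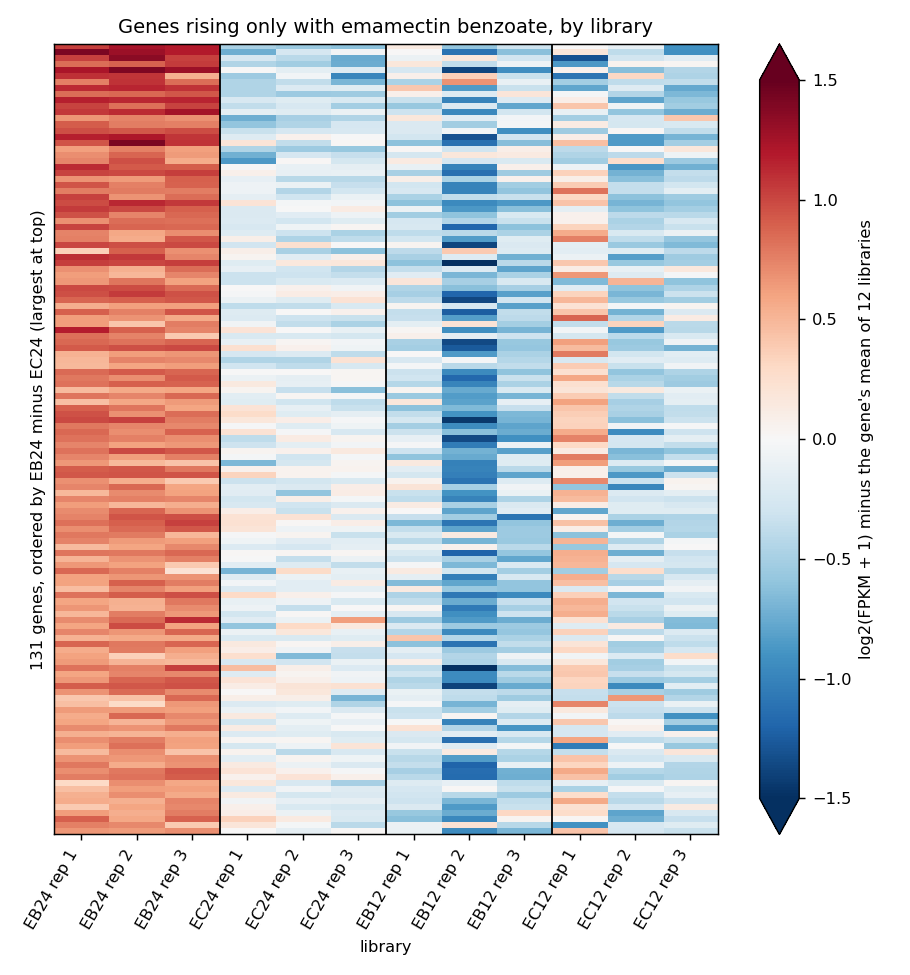
Each row is 1 of the 131 genes and each column 1 library, with the colour giving log2(FPKM + 1) minus the gene's mean of the 12 libraries. The 3 EB24 columns are red almost throughout, while EB12 replicate 2 is the bluest column and EC12 replicate 1 is redder than the other EC12 columns, being the highest of the 3 EC12 libraries in 99 of the 131 rows.

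In single libraries the pattern was less uniform than in the means. All 3 EB24 libraries lay above all 3 EC24 libraries in 130 of the 131 genes (40.4% of all IDs tested showed this), above all EB12 libraries in 130 (37.6%), and above all EC12 libraries in 112 (32.6%). In 111 genes they lay above the other 9 libraries together (11.5% of IDs tested). The exceptions, picked out after their values were seen, were BXY_1092400, with 13.16, 12.17 and 8.08 FPKM in EB24 and 3.81, 8.48 and 6.22 FPKM in EC24, and BXY_1368600, with 11.77, 17.59 and 14.96 FPKM in EB24 and 6.57, 12.04 and 7.67 FPKM in EB12. In the limma fit over all 12 libraries, 100 members were called higher in EB24 than in EC24, where 14.5% of the 13768 IDs were called higher. For EB24 against EB12 the fit called 130 members higher, beside 30.3% of IDs, and the member it did not call was BXY_0884400. The difference between the agent effects at 24 h and 12 h was called positive for 67 members, beside 6.46% of IDs. These counts follow from the rule, and nothing is read from them. The count for EB24 against EC24 moved with the libraries fitted. It was 131 with the 24 h libraries alone (35.9% of IDs), and 38 to 55 with any 1 of the 6 libraries at 24 h left out of the 12-library fit. The share of all IDs called without those libraries is not given, so the lower counts cannot be read as particular to the members.

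**Figure D2:**
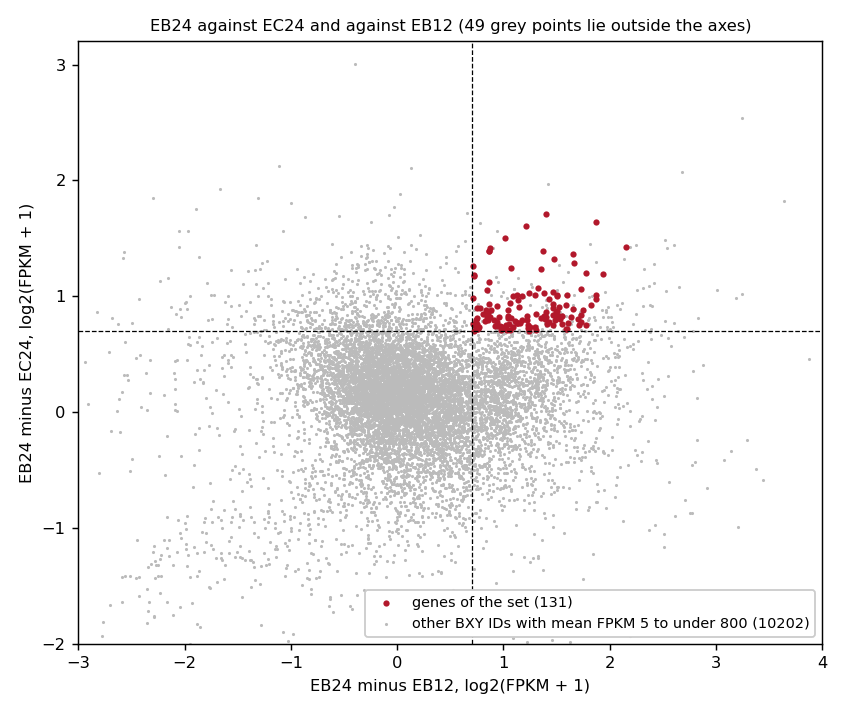
Each point is a BXY gene with a mean of 5 to under 800 FPKM, placed by EB24 minus EB12 (x axis) and EB24 minus EC24 (y axis), both in log2(FPKM + 1). The 131 genes of the set are red, the other 10202 are grey, of which 49 lie outside the axes and are not shown, and the dashed lines mark the threshold of 0.7 on each axis; grey points beyond both lines failed the limit on the adjuvant control or that on the 12 h replicates.

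Among the 6 genes with the largest EB24 minus EC24 difference, the lead was held by BXY_1430300. It had 27.65, 31.84 and 30.83 FPKM in EB24 and 8.97, 8.50 and 8.10 FPKM in EC24, with 14.33, 8.32 and 10.30 FPKM in EB12 and 13.04, 11.85 and 6.48 FPKM in EC12. Its lowest EB24 library thus stood well above the highest of the other 9, and its log2 difference from EC24 was 1.71 ± 0.24 (SE, 12-library fit). BXY_1384100 had 26.56, 24.13 and 22.68 FPKM in EB24, against 5.22, 7.70 and 9.03 FPKM in EC24, 9.38, 3.82 and 5.69 FPKM in EB12 and 10.79, 6.96 and 4.48 FPKM in EC12 (1.64 ± 0.32 against EC24). The other 3 groups of this gene overlapped one another, and EB24 overlapped none of them.

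BXY_0905200 was the most abundant of these 6, with 137.33, 172.52 and 137.02 FPKM in EB24 and 56.00, 50.41 and 39.34 FPKM in EC24. At 12 h it had 62.69, 75.26 and 54.29 FPKM in EB12 and 26.42, 54.63 and 59.17 FPKM in EC12, the low value being that of EC12 replicate 1. BXY_1697900 had 46.18, 47.86 and 53.53 FPKM in EB24, 18.30, 17.32 and 14.73 FPKM in EC24, 28.57, 19.39 and 24.06 FPKM in EB12 and 13.49, 26.30 and 25.97 FPKM in EC12. EC12 replicate 1 was low here too, and the EC24 libraries lay below those of EB12 without overlap. Without EC12 replicate 1 its EC24 minus EC12 difference was -0.61 in place of -0.31, so that it left the band of 0.5. BXY_0801400 had 29.25, 33.05 and 30.46 FPKM in EB24, against 11.81, 10.62 and 10.27 FPKM in EC24, 9.85, 3.98 and 5.78 FPKM in EB12 and 12.50, 7.30 and 8.55 FPKM in EC12. It led the whole set in EB24 minus EB12, at 2.16 ± 0.26 log2 units (SE). BXY_0884400 was uneven in each group, with 17.84, 17.47 and 11.76 FPKM in EB24 and 5.05, 7.55 and 3.48 FPKM in EC24. In EC12 it ranged from 3.13 to 9.88 FPKM, and its mean SD of log2(FPKM + 1) over the 24 h groups, 0.392, was among the 3 largest of the set.

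**Figure D3:**
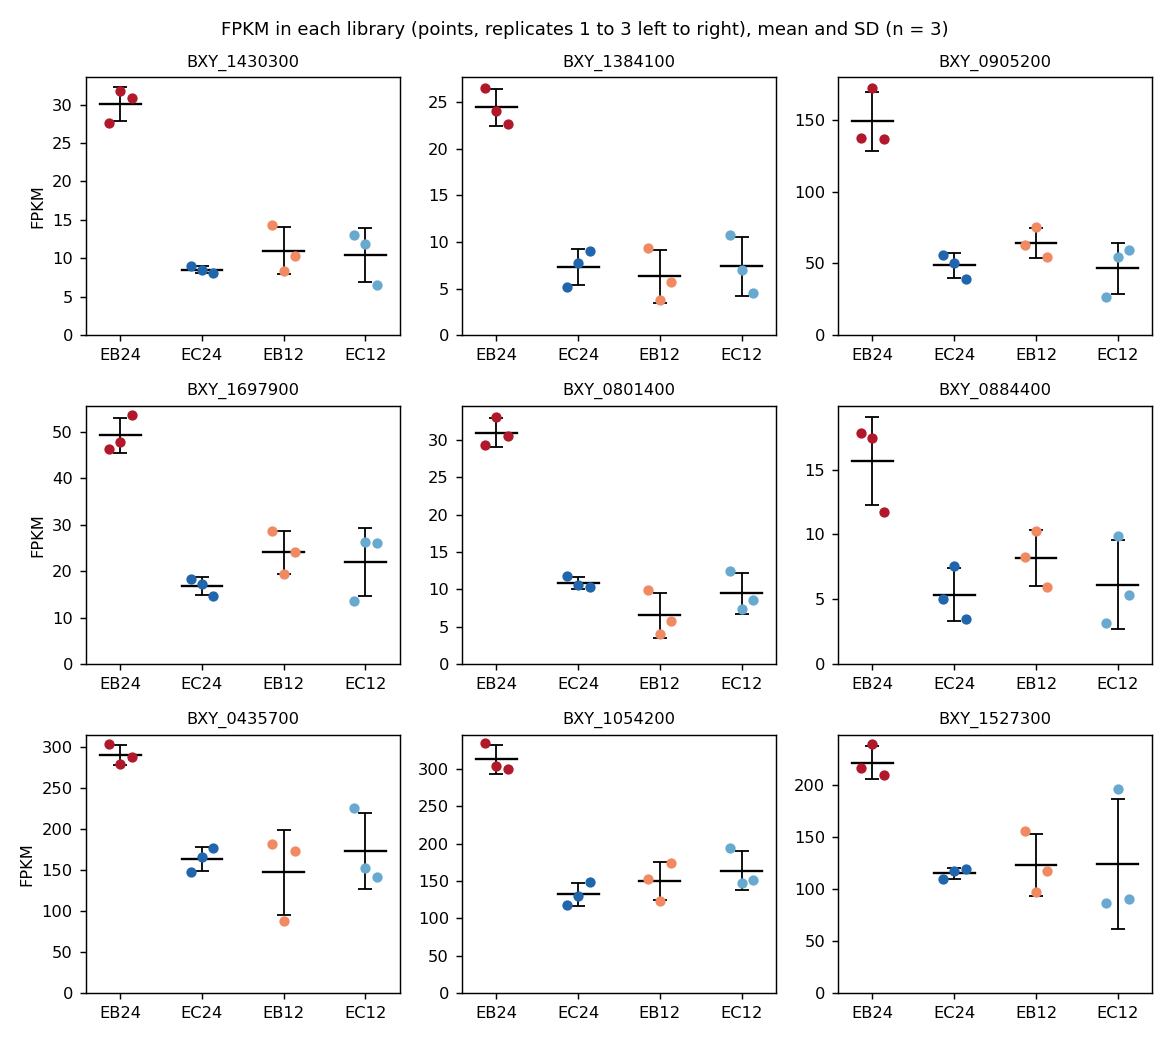
FPKM on the y axis for 9 genes of the set, the 6 with the largest EB24 minus EC24 difference and the 3 with the highest mean, with 1 point per library, a bar at the group mean and error bars of 1 SD (n = 3). In each panel the 3 EB24 points lie above the other 9. The gap is narrow in BXY_0884400 (lowest EB24 value 11.76 FPKM, highest other value 10.26 FPKM in EB12 replicate 2) and in BXY_1527300 (209.10 FPKM, against 196.19 FPKM in EC12 replicate 2).

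The 6 members with the largest EB24 minus EB12 difference were BXY_0801400, BXY_0029200, BXY_1384100, BXY_1154500, BXY_0119400 and BXY_1649200, at 1.82 to 2.16 log2 units. Their means in EB24 were 15.2 to 30.9 FPKM, and those in EB12 were 3.67 to 6.54 FPKM. In BXY_0119400 the EB24 libraries had 23.08, 25.90 and 24.43 FPKM and the EC24 libraries 13.10, 11.03 and 10.85 FPKM. At 12 h BXY_0119400 had 6.97, 5.31 and 5.72 FPKM in EB12 and 15.47, 6.54 and 7.13 FPKM in EC12. EC12 replicate 1 of this gene thus lay above the EC24 libraries, and the other EC12 libraries lay below them. Likewise BXY_1154500 had 6.63, 8.61 and 8.72 FPKM in EC24, against 10.43 FPKM in EC12 replicate 1 and 4.80 and 5.07 FPKM in the other EC12 libraries. BXY_0029200 had 8.99, 5.76 and 7.82 FPKM in EC24, against 10.91 FPKM in EC12 replicate 1 and 3.85 and 5.12 FPKM in the others. Without that library EC24 minus EC12 was 0.69 for BXY_0119400, 0.59 for BXY_1154500, 0.63 for BXY_0029200 and 0.57 for BXY_1649200, so all of these left the band of 0.5 that the rule allows. It was 0.42 for BXY_0801400 and 0.30 for BXY_1384100.

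The most abundant members had mean values over the 12 libraries of 104 to 194 FPKM, and none reached 200. BXY_0435700 had 304.00, 279.35 and 288.12 FPKM in EB24 and 147.95, 165.61 and 177.37 FPKM in EC24. At 12 h BXY_0435700 had 181.58, 87.69 and 172.91 FPKM in EB12 and 225.72, 152.43 and 141.33 FPKM in EC12. EB12 replicate 2 was its lowest library and EC12 replicate 1 its highest outside EB24. BXY_1054200 had 334.56, 303.91 and 299.66 FPKM in EB24, 117.72, 129.45 and 148.94 FPKM in EC24, 152.49, 123.47 and 173.88 FPKM in EB12 and 193.64, 147.16 and 150.73 FPKM in EC12. Its EB24 minus EC24 difference of 1.24 ± 0.15 log2 units (SE) was the largest of the 6 most abundant members. BXY_1527300 averaged 221 ± 15.7 FPKM in EB24 and 115 ± 5.24 FPKM in EC24 (SD, n = 3), and 1 of its EC12 libraries, replicate 2, reached 196.19 FPKM while the others had 85.99 and 90.03 FPKM. The groups of BXY_0263900, BXY_0224400 and BXY_0911600 other than EB24 had closer means, of 114 to 119 FPKM, 88.0 to 98.4 FPKM and 85.4 to 91.7 FPKM, against 197, 155 and 153 FPKM in EB24. For these 3 genes both EB24 differences were 0.72 to 0.81 log2 units.

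The tightest member at 24 h was BXY_0617300. It had 47.91, 47.16 and 48.09 FPKM in EB24, 28.30, 28.61 and 27.81 FPKM in EC24, 28.12, 28.84 and 27.49 FPKM in EB12 and 27.27, 29.07 and 34.34 FPKM in EC12. Only EB24 stood apart: the other 9 libraries spanned 27.27 to 34.34 FPKM. BXY_1596400 was close behind in spread at 24 h and larger in size, with 48.58, 47.53 and 47.69 FPKM in EB24 and 17.64, 18.49 and 17.90 FPKM in EC24. Its 12 h libraries were less even, at 16.54, 10.04 and 18.20 FPKM in EB12 and 22.66, 11.79 and 13.84 FPKM in EC12. BXY_0968400 had 17.39, 17.22 and 18.20 FPKM in EB24 and 9.65, 9.78 and 9.80 FPKM in EC24, against 14.41, 5.33 and 7.29 FPKM in EC12. The least even at 24 h, beside BXY_0884400 and BXY_1092400, was BXY_1233800, with 9.19, 9.48 and 12.99 FPKM in EB24 and 7.19, 7.16 and 3.75 FPKM in EC24. The spread of the members at 24 h, which the rule did not use, had a median SD of 0.10 log2 units in EB24 and 0.14 in EC24, beside 0.08 and 0.10 over the 10333 genes in the level range. Within classes of level the members were close to other genes, at a mean SD of 0.15 beside 0.15 for 5 to 10 FPKM, 0.09 beside 0.11 for 10 to 20 FPKM, 0.09 beside 0.09 for 20 to 50 FPKM and 0.09 beside 0.07 for 50 to 200 FPKM.

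Most members belonged to the lower part of the level range. The share of genes that met the rule was 3.41% (55 of 1612) at a mean of 5 to 10 FPKM, 2.18% (42 of 1928) at 10 to 20 FPKM, 0.657% (20 of 3046) at 20 to 50 FPKM, 0.449% (14 of 3121) at 50 to 200 FPKM and 0 of 626 at 200 to 800 FPKM. The median EB24 minus EC24 difference was alike in these classes, at 0.82 to 0.88. All members had to pass the threshold of 0.7, so medians a little above it follow largely from the rule. EB24 minus EB12 had medians of 1.25 and 1.27 in the lower pair of classes and of 1.00 and 0.90 in the upper pair. EB12 minus EC12, which is fixed by the differences that the rule used, was -0.40 and -0.41 in the lower pair and -0.09 and 0.05 in the upper pair.

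At 12 h the EB12 mean lay below the EC12 mean in 103 of the 131 genes (57.8% of all IDs tested), with a median difference of -0.33 log2 units, beside -0.05 over the IDs tested. The choice favours this sign, because a low EB12 mean raises EB24 minus EB12. The order of group means from high to low was EB24, EC24, EC12, EB12 in 54 genes and EB24, EC12, EC24, EB12 in 41, so that EB12 was the lowest group in most of the set. Of the rest, EB12 came directly after EB24 in 13 genes with EC24 last and in 4 with EC12 last. EC12 came last after EC24 and EB12 in 11, and EC24 came last after EC12 and EB12 in 8. The limma fit called 0 members between EB12 and EC12 (0.116% of IDs tested), in either direction. At an unadjusted p under 0.05, limma had 25 members lower and 1 higher in EB12 (8.62% and 3.53% of IDs), and with the 12 h libraries alone 2 lower and 0 higher (2.77% and 1.34% of IDs). The 3 EB12 libraries lay below all 3 EC12 libraries in 11 genes (7.41% of IDs) and above them in 0 (2.43% of IDs).

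The most negative of these differences belonged to BXY_1588700, BXY_0269300 and BXY_0743400. BXY_0269300 had 43.83, 42.19 and 41.72 FPKM in EB24, 24.53, 21.91 and 23.81 FPKM in EC24, 17.20, 12.52 and 13.97 FPKM in EB12 and 32.02, 23.91 and 24.53 FPKM in EC12. Its EB12 libraries stood below those of EC12 without overlap, and its EB12 minus EC12 difference was -0.84 ± 0.14 log2 units (SE). BXY_0743400 had 10.78, 5.44 and 10.10 FPKM in EB12 against 24.32, 10.14 and 14.63 FPKM in EC12, and BXY_1588700 had 6.10, 2.01 and 3.09 FPKM in EB12 against 11.98, 5.47 and 5.95 FPKM in EC12. In both of these genes the groups overlapped, and EC12 replicate 1 was the highest 12 h library. At the other end stood BXY_0905200, BXY_0884400 and BXY_1301200, with EB12 minus EC12 of 0.52, 0.45 and 0.45. BXY_1301200 had 103.09, 129.91 and 109.17 FPKM in EB24 and 44.28, 46.91 and 37.53 FPKM in EC24, with 43.49, 97.37 and 55.94 FPKM in EB12 and 42.24, 46.41 and 46.65 FPKM in EC12. Here EB12 replicate 2 alone lay near the EB24 level.

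The adjuvant controls were held near constant by the rule, and 73 members had EC24 within 0.25 log2 units of EC12. The limma fit called 3 members between EC24 and EC12, 2 higher and 1 lower, where it called 24.7% of all IDs higher and 25.9% lower. Without overlap of single libraries, EC24 lay above EC12 in 2 members (29.0% of IDs) and below it in 4 (31.0% of IDs). The 3 called genes were picked out after their values were seen. BXY_0178500 had 26.65, 29.89 and 22.99 FPKM in EC24 and 20.56, 18.63 and 18.03 FPKM in EC12. BXY_0228300 had 9.74, 10.17 and 9.26 FPKM in EC24 and 8.48, 6.01 and 6.76 FPKM in EC12. Both were higher in EC24 without overlap, by 0.45 and 0.42 log2 units, and higher still in EB24, which had 42.68, 48.51 and 43.94 FPKM of BXY_0178500 and 20.19, 20.09 and 18.20 FPKM of BXY_0228300. In the other direction BXY_0832300 had 29.14, 27.15 and 26.75 FPKM in EC24 and 30.38, 40.37 and 45.18 FPKM in EC12. It had 62.03, 68.25 and 61.99 FPKM in EB24 and 40.61, 32.57 and 42.60 FPKM in EB12.

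The near constancy of the control rested in part on EC12 replicate 1. This library had the highest FPKM of the 3 EC12 libraries in 99 of the 131 genes (41.0% of all IDs tested), and it was the highest of all 9 libraries outside EB24 in 77 (13.7% of IDs). The median FPKM of the members was 9.25 to 10.1 in the EC24 libraries, against 13.0 in EC12 replicate 1 and 8.12 and 8.05 in the other EC12 libraries. EC24 therefore lay below EC12 replicate 1 and above the others. Without EC12 replicate 1, EC24 minus EC12 had a median of 0.21 log2 units over the members. It was 0.10 over the IDs tested and -0.01 over the 10333 genes in the level range. Of the members, 34 then stood at 0.5 or above and 3 at -0.5 or below. The fit of the other 11 libraries then called 27 members higher in EC24 and 3 lower, where it called 29.3% and 26.2% of the 13706 IDs it tested. The rule applied to those 11 libraries found 106 genes, of which 92 were among the 131. The description of these genes as higher with emamectin benzoate and flat in the adjuvant thus held for the means of all 12 libraries, and for 92 of the 131 once this library was set aside. EB24 minus EC24, which uses no 12 h library, is the same with and without it. What set EC12 replicate 1 apart was not tested.

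**Figure D4:**
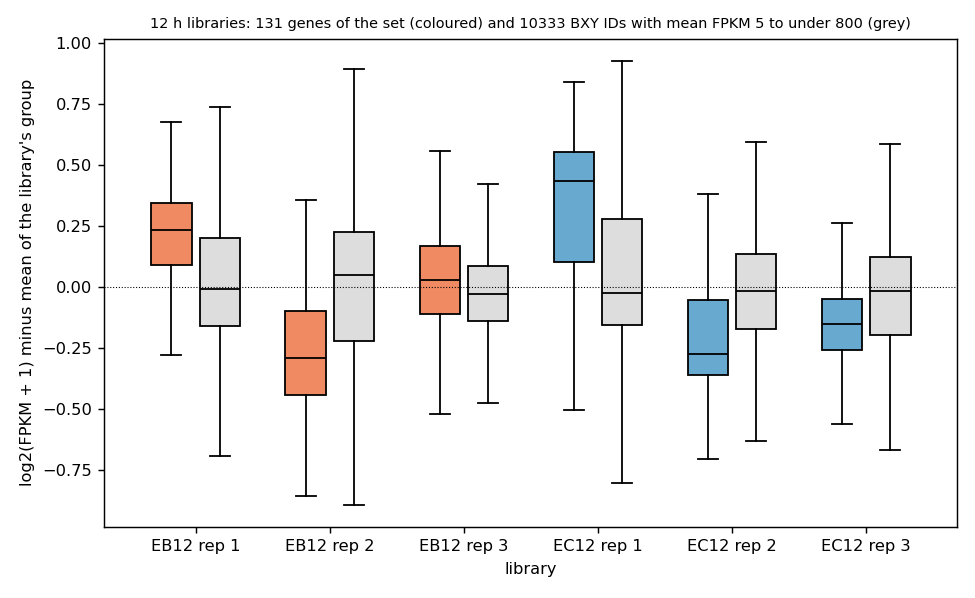
For each 12 h library the y axis gives log2(FPKM + 1) minus the mean of the library's group, as boxes of the 131 genes (coloured) and of all 10333 BXY genes in the level range (grey), with the median as a line, quartiles as box ends and whiskers to the farthest value within 1.5 box lengths. The members sit high in EC12 replicate 1 (median 0.43) and EB12 replicate 1 (0.23) and low in EB12 replicate 2 (-0.29) and EC12 replicate 2 (-0.27), while the grey medians lie between -0.03 and 0.05.

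The 12 h replicates of the members were ordered alike in much of the set. The rule bears on this order through the group means, since a low EB12 library raises EB24 minus EB12 and a high EC12 library lowers EC24 minus EC12, so the shares are a description. Without EB12 replicate 2, 15 members missed the threshold of EB24 minus EB12, beside 4 and 13 without EB12 replicates 1 and 3. Without EC12 replicate 1, 37 missed the limit on the control, beside 12 and 6 without EC12 replicates 2 and 3. The whole rule kept 117, 115 and 101 members without EB12 replicates 1, 2 and 3. It kept 92, 111 and 102 without EC12 replicates 1, 2 and 3. EB12 replicate 2 was the lowest EB12 library in 97 genes, a share of 74.0%, beside 35.7% of the genes in the level range. In 86 genes (65.6%, beside 24.4%) EC12 replicate 1 was the highest of EC12 and EB12 replicate 2 the lowest of EB12. The reverse, EC12 replicate 1 lowest and EB12 replicate 2 highest, was found in 12 genes (9.16%, beside 27.0%). The 99 genes that were highest in EC12 replicate 1 had a median mean level of 10.7 FPKM, a median EB24 minus EB12 of 1.38 and a median EB12 minus EC12 of -0.44. Without EC12 replicate 1 their median EC24 minus EC12 was 0.29. The 21 genes that were lowest in that library were more abundant, with a median of 33.6 FPKM. They had a median EB24 minus EB12 of 0.86, a median EB12 minus EC12 of 0.11 and, without EC12 replicate 1, a median EC24 minus EC12 of -0.12. EB24 minus EC24 was alike in both, at 0.83 and 0.88.

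The rule was then applied with 1 replicate number left out of every group, and the differences were read in the 4 libraries left out. With 1 library per group there is no test. EB24 stood above EC24 in the left-out libraries in 120 of 120 genes chosen without replicate 1, in 140 of 140 chosen without replicate 2 and in 99 of 101 chosen without replicate 3, beside 58.9%, 66.4% and 66.5% of all genes in the level range. The median difference was 0.73, 0.83 and 0.77 log2 units in the left-out libraries and 0.85, 0.84 and 0.85 in the libraries that chose the genes. EB24 stood above EB12 in 118 of 120, 139 of 140 and 101 of 101 genes, with medians of 0.87, 1.67 and 1.17, beside 59.8%, 53.6% and 59.3% of all genes in the level range. The control differed more between the replicate numbers: EC24 minus EC12 had medians of -0.28, 0.49 and 0.30, and lay within 0.5 in 53.3% (64 of 120), 47.9% (67 of 140) and 56.4% (57 of 101) of the chosen genes, beside 55.3%, 42.4% and 40.9% of all genes in the level range. All 3 fold thresholds of the rule were met by 18 of 120 genes (15.0%), 42 of 140 (30.0%) and 35 of 101 (34.7%) in the left-out libraries, beside 1.28%, 1.5% and 1.51% of all genes in the level range. EB24 thus stood higher in the left-out libraries for nearly all chosen genes. Those libraries belong to the same groups as the libraries that chose the genes, so any shift common to a group recurs in them. Genes of the same library are also no replicates, so these shares are a description and no independent support for the set. The share with a flat control was above that of all genes in the level range for replicates 2 and 3 and below it for replicate 1. These choices share libraries with one another and with the full set.

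**Figure D5:**
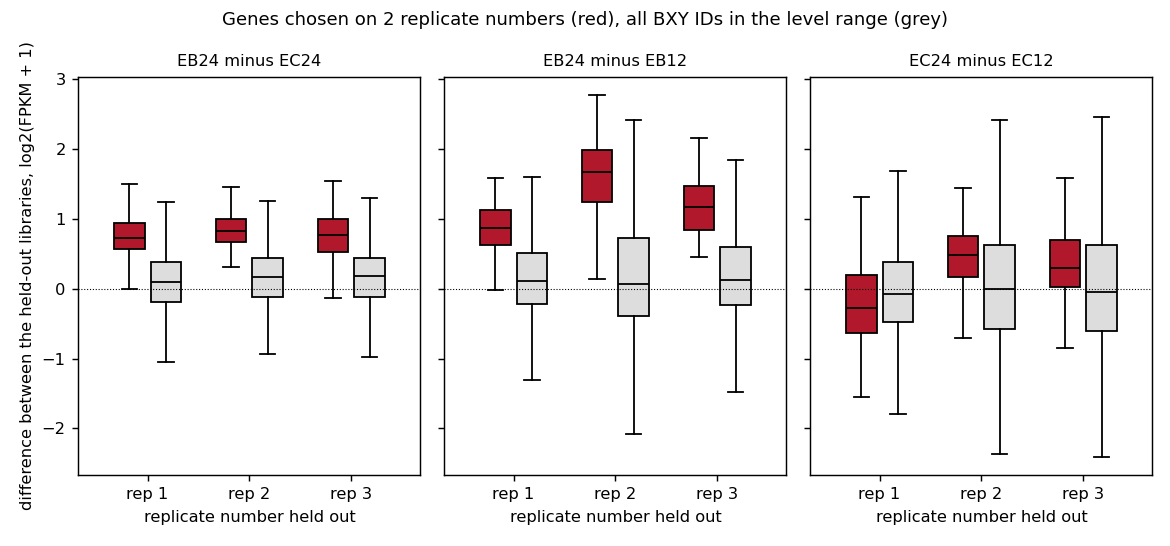
The y axis is the difference between 2 libraries of the replicate number left out, in log2(FPKM + 1), for genes chosen on the other replicate numbers (red) and for all BXY genes in the level range (grey), with boxes drawn as for the 12 h libraries. The red boxes of both EB24 differences lie above 0 for each replicate number, while those of EC24 minus EC12 have medians of -0.28, 0.49 and 0.30.

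Genes on both sides of each limit had close values. Just inside the threshold of 0.7 for EB24 minus EC24 stood BXY_0980200, with 29.57, 29.03 and 30.15 FPKM in EB24 and 18.41, 16.51 and 18.55 FPKM in EC24, and BXY_0282600, with 21.77, 21.06 and 16.61 FPKM in EB24 and 14.24, 12.20 and 9.17 FPKM in EC24. Just outside it stood BXY_1753400 and BXY_1626400, which had mean values of 34.4 and 32.1 FPKM in EB24 and 20.7 and 19.5 FPKM in EC24. For EB24 minus EB12, BXY_1532700 and BXY_0398400 were just inside at 0.71, and BXY_0217800 and BXY_0678900 just outside at 0.69. BXY_0398400 averaged 130 FPKM in EB24, 53.9 FPKM in EC24, 79.2 FPKM in EB12 and 75.8 FPKM in EC12, so that EC24 was its lowest group. For the control, BXY_1595800 and BXY_1364500 were inside at 0.49, and BXY_0136500 and BXY_0642900 outside at 0.50. At the limit on the 12 h spread, BXY_1543400 and BXY_1588700 were inside at 0.60 and 0.59, and BXY_1747900 and BXY_0786500 outside at 0.60 and 0.61. At the lower limit of level, BXY_1251000 and BXY_1161800 were inside at a mean of 5.11 and 5.26 FPKM, and BXY_0971100 and BXY_1598600 outside at 4.99 and 4.97 FPKM. Thresholds of 0.5 on both EB24 differences would have taken 307 genes, and thresholds of 1 would have taken 25.

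The members were spread over the ID numbers. In 2 pairs, seen after the fact, the ID numbers were consecutive: BXY_0353900 with BXY_0354000, and BXY_0601400 with BXY_0601500. BXY_0354000 had 14.08, 12.49 and 13.67 FPKM in EB24 and 6.86, 6.25 and 5.48 FPKM in EC24, and BXY_0353900 had 9.59, 11.40 and 10.46 FPKM in EB24 and 5.73, 4.02 and 7.18 FPKM in EC24. BXY_0601500 was about as high in 1 control library as in EB24, with 43.17, 47.26 and 49.56 FPKM in EB24, 27.50, 25.31 and 23.82 FPKM in EC24, 35.47, 17.55 and 28.82 FPKM in EB12 and 48.38, 21.91 and 28.38 FPKM in EC12. BXY_0601400 had 23.59, 20.04 and 21.95 FPKM in EB24, 9.86, 10.20 and 10.99 FPKM in EC24, 7.84, 7.31 and 9.81 FPKM in EB12 and 12.17, 8.59 and 8.58 FPKM in EC12, with no overlap of EB24 and the rest. Whether consecutive numbers are neighbours in the genome is not stated in the sources used here. The 218 tested IDs next in number to a member, and not members, had a median EB24 minus EC24 of 0.16 and EB24 minus EB12 of 0.24, beside 0.14 and 0.15 over all IDs tested. Among the 332 IDs that start with XLOC, 2 met the same limits, XLOC_006445 with 7.44, 7.69 and 8.10 FPKM in EB24 and 3.98, 3.77 and 4.01 FPKM in EC24, and XLOC_012852 with 87.62, 106.25 and 95.99 FPKM in EB24 and 61.58, 62.49 and 49.31 FPKM in EC24.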

How the data were processed

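The FPKM values come from 1 table that the authors deposited, in which all 12 value columns matched a library title. Per the submitters' processing notes, TopHat2 2.1.1 was used. Genome build, annotation, counting tool, strand handling and gene filters: not given in the sources used here. Since FPKM divides by the library total, abundant genes can shift all others. Reads of near-identical or overlapping genes may be shared. No 2 libraries were identical. P-values reflect the spread of these libraries alone, and that spread may be technical.

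The rule was applied to log2(FPKM + 1) of the deposited values, with sample variances. This scale understates the change of low genes. The members and lists were chosen with earlier results of these data known. As background, the 13768 IDs with at least 1 FPKM in at least 3 libraries, all 131 members among them, were fitted with limma 3.58.1 in R 4.3.3 (1 mean per group, 12 libraries, variances following the mean). Tests were two-sided at a Benjamini-Hochberg adjusted p of 0.05 over these IDs. The SEs given come from this fit, in which all groups share 1 spread per gene. As the 12 h libraries varied more, these SEs tend to be too small between 12 h groups and too large between 24 h groups. The fit was tested on simulated data.

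Named members are the 6 largest in EB24 minus EC24, in EB24 minus EB12 and in mean FPKM, the 3 at each end of EB12 minus EC12 and of the 24 h spread, and the 2 genes on each side of each limit. Gene lists needing descriptions were not used, and 0 were filled. Alternatives were other pseudocounts, filters and scalings, a fit of only the groups compared, a replicate block, no trend, other limits of the rule and leaving out libraries.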

Additional observations from a re-analysis of the deposited data

Results flagged for a closer look

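The rule fixes all terms of the difference between the 24 h and 12 h effects of emamectin benzoate, so the calls of this interaction follow from the choice of genes and are listed as values only. They numbered 67 of the 131 members, all positive, beside 6.46% of the 13768 IDs (limma, Benjamini-Hochberg adjusted p under 0.05). Its size, the 24 h difference minus the 12 h difference in log2 units, was 1.94 for BXY_0801400, 1.85 for BXY_1384100, 1.69 for BXY_0029200, 1.62 for BXY_1430300, 1.60 for BXY_1154500, 1.54 for BXY_0119400, 1.53 for BXY_1649200, 1.46 for BXY_1596400 and 1.33 for BXY_1697900. It was 1.74 for BXY_1588700, 1.68 for BXY_0743400 and 1.67 for BXY_0269300, the members with the lowest EB12 relative to EC12. Among the most abundant members it was 1.37 for BXY_1054200, 0.90 for BXY_0224400 and 0.68 for BXY_0263900, and it was 0.83 for BXY_0617300. Near the limits of the rule it was 1.22 for BXY_0980200, 1.16 for BXY_1161800 and 1.15 for BXY_0398400. The other 15 named members did not pass, with 0.28 for BXY_1364500 the smallest value and 1.41 for BXY_1543400 the largest. The count of 67 was 7 to 23 without any 1 of the 24 h libraries and 28 without EB12 replicate 3. The share of all IDs called in those fits is not given, so these lower counts are not particular to the members as far as shown.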

How the results depend on the processing

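The set depended most on scaling and on its limits. The rule found 131 genes as deposited, 72 after median ratio scaling (67 shared with the 131) and 80 after quantile normalization (64 shared), where the median EB24 minus EC24 of all IDs tested was 0.14, 0.06 and 0.03. It found 307 and 25 genes with thresholds of 0.5 and 1 on both EB24 differences, 73 with the control within 0.25, 101 to 144 with libraries left out, 126 and 127 with pseudocounts of 0.1 and 0.5, and 133 with XLOC IDs included. Without a limit on the 12 h spread it found 146, and 142 with the population variance, which was tried after seeing the data. Of the 131 members, those called higher in EB24 than in EC24 numbered 38 to 122 with 1 library left out (38 to 46 without EB24 replicates 1, 2 and 3, 40 to 55 without EC24 replicates 1, 2 and 3). Higher calls of EB24 against EB12 numbered 117 to 131. Calls of EC24 against EC12 numbered 0 to 30 with 1 library left out (30 without EC12 replicate 1) and 8 after quantile normalization. Calls of EB12 against EC12 numbered 0 to 1, with 1 after quantile normalization and 1 with a mean of at least 5 FPKM. Positive interactions numbered 7 to 91, and 33 after median ratio scaling. Whether same-numbered libraries were pairs was judged by correlations over the IDs tested, which were -0.17 to 0.34 and are not correlations of expression levels. Between EB12 and EC12 they were 0.34, 0.15 and -0.05 for replicates 1, 2 and 3. The members were high in both replicates 1 and low in both replicates 2. No pair of groups had all 3 correlations over 0.1, and the numbers were not taken as pairs. These correlations cannot settle whether same-numbered 12 h libraries were handled together, and this was not tested. With a replicate block the counts were 107 for EB24 against EC24, 131 for EB24 against EB12, 3 for EC24 against EC12, 0 for EB12 against EC12 and 80 for the interaction. For most of these settings the share of all IDs called is not given. The counts therefore cannot tell a shift of the members from a shift of the calls of all genes. For the 44 named genes, 1627 of 1844 recomputed EB24 differences kept sign and side of the threshold, 177 lost the call, 40 gained it and 0 changed sign. The cause of these shifts was not tested. Depth is unknown, which limits the precision for genes of a few FPKM.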
